A study of Mus musculus with 6 samples.

Results

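The AP-1 and immediate early genes described here are Fos, Fosb, Fosl1, Fosl2, Jun, Junb, Jund, Atf3, Egr1 and Ier2, which were taken from the expression table by their symbols. These are 10 of the 47360 gene symbols in the table. They were measured by bulk RNA-seq in dental epithelial organoids (DEOs), which grow in Matrigel from adult stem cells of the apical incisor buds of wild-type, 9-week-old, female C57BL/6J mice. The media combined growth factors and a Notch inhibitor in the search for conditions in which such organoids grow well. All media contained Wnt3a-conditioned medium at 50%, R-spondin1-conditioned medium at 5%, EGF at 100 µg per ml, Noggin at 200 µg per ml, the ROCK inhibitor Y27632 at 10 µM and N-acetylcysteine at 1 mM, and the cultures were kept for 14 days.

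The +N medium held nothing else. The +ND medium added DBZ, which blocks the cleavage that releases active Notch, at 10 µM per the labels, whereas the methods text writes the same number in mM. The +NF medium added FGF10 at 100 µg per ml, and +NFD added both. Each of these 4 media is represented by 1 library, and the labels do not say how many wells or mice went into it. No p-value and no SD can therefore be given, and no difference between media was checked by a replicate. The +NJ and +NFJ media were not analysed here.

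AP-1 is a dimeric transcription factor that joins a Fos protein with a Jun protein, or a Jun protein with a second Jun or an ATF protein, and binds short palindromic DNA elements. Most genes of this kind are immediate early genes: growth factors such as EGF and FGF10 raise their transcription within minutes through ERK, JNK and p38 kinases and the serum response factor SRF, without new protein synthesis, and the transcripts then decay quickly. In stratified epithelia AP-1 acts both in growth factor responses and in the terminal differentiation of keratinocytes, where the Fos and Jun proteins differ in the genes they regulate.

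The promoter bases of Fos, Jun and Junb are shown because these genes carry the best studied inducible promoters of the group and because their RefSeq start sites coincide with the ends of the genes in the deposited table. Each line holds the 250 bases before the start site in the direction of transcription, from RefSeq on GRCm38.p6. Fos is on the plus strand at chr12:85473640-85473889, Jun on the minus strand at chr4:95052223-95052472 and Junb on the minus strand at chr8:84978749-84978998. Capitals mark matches on either strand to TGACG, to the CCAAT box, to the TATA box written as TATAAA, and to TGANNTCA.
Fos: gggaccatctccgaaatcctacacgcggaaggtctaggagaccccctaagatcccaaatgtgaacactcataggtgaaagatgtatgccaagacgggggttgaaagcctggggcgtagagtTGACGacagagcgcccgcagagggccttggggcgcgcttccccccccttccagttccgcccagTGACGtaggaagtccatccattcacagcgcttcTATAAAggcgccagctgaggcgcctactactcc
Jun: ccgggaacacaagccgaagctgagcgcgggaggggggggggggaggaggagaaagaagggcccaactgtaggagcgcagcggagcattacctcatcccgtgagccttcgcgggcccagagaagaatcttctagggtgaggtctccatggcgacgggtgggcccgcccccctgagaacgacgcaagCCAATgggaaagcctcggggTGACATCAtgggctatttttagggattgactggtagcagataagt
Junb: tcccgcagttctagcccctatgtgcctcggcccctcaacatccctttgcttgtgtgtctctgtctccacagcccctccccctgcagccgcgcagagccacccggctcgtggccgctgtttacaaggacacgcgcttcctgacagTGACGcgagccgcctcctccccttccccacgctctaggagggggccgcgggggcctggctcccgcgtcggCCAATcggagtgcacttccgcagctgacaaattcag

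In the Fos promoter TGACG, the core of the cyclic AMP response element, lay at -129 to -125 and at -66 to -62 from the start, and TATAAA at -33 to -28. The Jun promoter held CCAAT at -65 to -61 and TGANNTCA, a spacing that AP-1 and ATF dimers can bind, at -45 to -38. The Junb promoter held TGACG at -106 to -102 and CCAAT at -36 to -32. Of 32851 mouse promoters of the same length, 17.8% held TGACG, 33.8% held CCAAT, 12.4% held TATAAA and 11.9% held TGANNTCA. The promoter table held 7 of the 10 genes (Atf3, Fos, Fosb, Fosl2, Jun, Junb and Jund). TGACG was also present in Fosb at -60 to -56 and, on the opposite strand, in Atf3 at -7 to -3, and TGANNTCA in Jund at -61 to -54. The Jund window lies before base 70697739, where the deposited table starts the gene, whereas the GENCODE M21 annotation starts it downstream at 70698949. Its GC content was 47.6%, and it may not be the main promoter. TGANTCA, TGACGTCA and the CArG box that SRF binds matched in none of the 7 windows, against 6.75%, 1.55% and 1.47% of all promoters. At such low shares the lack of a match in 7 windows says little. Sites more than 250 bases before the start, and any site of Fosl1, Egr1 and Ier2, were not searched. Whether these genes have a CArG box is therefore not answered here. A match to TGACGTCA would also count as a match to the looser TGANNTCA and as one to TGACG. The core of the GC box, GGGCGG, was searched too and left in lower case, and it was present in Atf3, Fos, Fosb, Fosl2 and Jun and in 32.7% of all promoters. The median GC content was 64.4% in the 7 windows and 52.4% in all promoters.

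On GRCm38, Fos lies on chromosome 12 (85473890 to 85477273, plus strand), Jun on chromosome 4 (95049034 to 95052222, minus), Fosl2 on chromosome 5 (32135801 to 32157842, plus), Fosb on chromosome 7 (19302696 to 19310051, minus) and Fosl1 on chromosome 19 (5447703 to 5455945, plus). Junb (84976909 to 84978748, minus), Jund (70697739 to 70700616, plus) and Ier2 (84661331 to 84662852, minus) lie on chromosome 8. Atf3 lies on chromosome 1 (191170296 to 191218039, minus) and Egr1 on chromosome 18 (34859823 to 34864984, plus). The strand setting of the counting is not given in the sources used here. Fragments of Jund therefore cannot be told apart from those of the antisense gene Gm11175, which lies within Jund over 543 bases and was listed at 73.1 FPKM in +N, 71.5 with DBZ, 46.6 with FGF10 and 73.4 with both. Jun shares 689 bases with the antisense gene Junos, which was listed at 2.16 to 3.21 FPKM.

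The deposited FPKM values are fragment numbers scaled to transcript length and to library size, so levels can be compared between genes. Between media they can be compared only as far as the libraries are alike in makeup. Of 13748 genes at 1 FPKM or more in at least 1 library, 41.8% were lowest in +N. After each library was scaled to its upper quartile, 30.7% of 13741 were. Total reads per library are not in the table. The smallest steps between low values gave about 27800000 fragments in +N, 21400000 with DBZ, 27500000 with FGF10 and 27100000 with both, and 12529 to 12959 symbols reached 1 FPKM. The dental and stratified epithelium markers were present in every library, from 5.83 FPKM for Sox2 in +NFD to 12652 for Krt14 in +N, and the 8 of them summed to 20289, 11230, 15914 and 13280 FPKM in +N, +ND, +NF and +NFD. Endothelial markers were below 1 FPKM throughout, with Cldn5 at 0 in each. The 11 fibroblast markers summed in the same order to 282, 256, 177 and 666 FPKM. The 10 macrophage markers summed to 682, 535, 498 and 418 FPKM, most of it from Lyz2, and the other 9 to 154, 127, 126 and 130. In these bulk samples fewer cells of a type and less RNA per cell cannot be told apart.

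Junb was the most abundant of the 10 transcripts and Ier2 the next in each of the 4 libraries. Junb encodes a Jun protein that restrains proliferation in several tissues, and it was listed at 352 FPKM in +N, 223 with DBZ, 212 with FGF10 and 242 with both. In the library where it was lowest relative to other genes, +ND, it still stood above 96.8% of the genes at 1 FPKM or more. Ier2, a short nuclear protein induced by growth factors, had 77.6 FPKM in +N, 60.5 with DBZ, 58.9 with FGF10 and 68.9 with both. Both were highest in +N and lowest in +NF.

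Fosb was the lowest transcript, at 0.329 FPKM in +N, 0.685 with DBZ, 0.414 with FGF10 and 0.710 with both. It encodes a Fos protein best known from stimulated neurons. These values stand for about 35 to 73 fragments per library and did not reach the minimum of 1 FPKM in the higher library that was set for ratios, so Fosb enters no count of 2-fold ratios. The other 9 genes were at 6.82 FPKM or more in each library, on about 372 to 17667 fragments, and passed that minimum in each comparison. Between these bounds the order of levels depended on the medium. In +N it ran from Junb and Ier2 through Jun, Fosl2, Egr1, Fos, Jund and Atf3 to Fosl1, and only Atf3 and Fosl1 had overlapping 95% Poisson intervals among neighbors. In +ND the intervals of Jun and Fos overlapped, in +NF those of Jun and Fos and of Fosl1 and Atf3, and in +NFD those of Jund and Fosl1. The intervals rest on estimated fragments and cover counting error only.

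**Figure D1:**
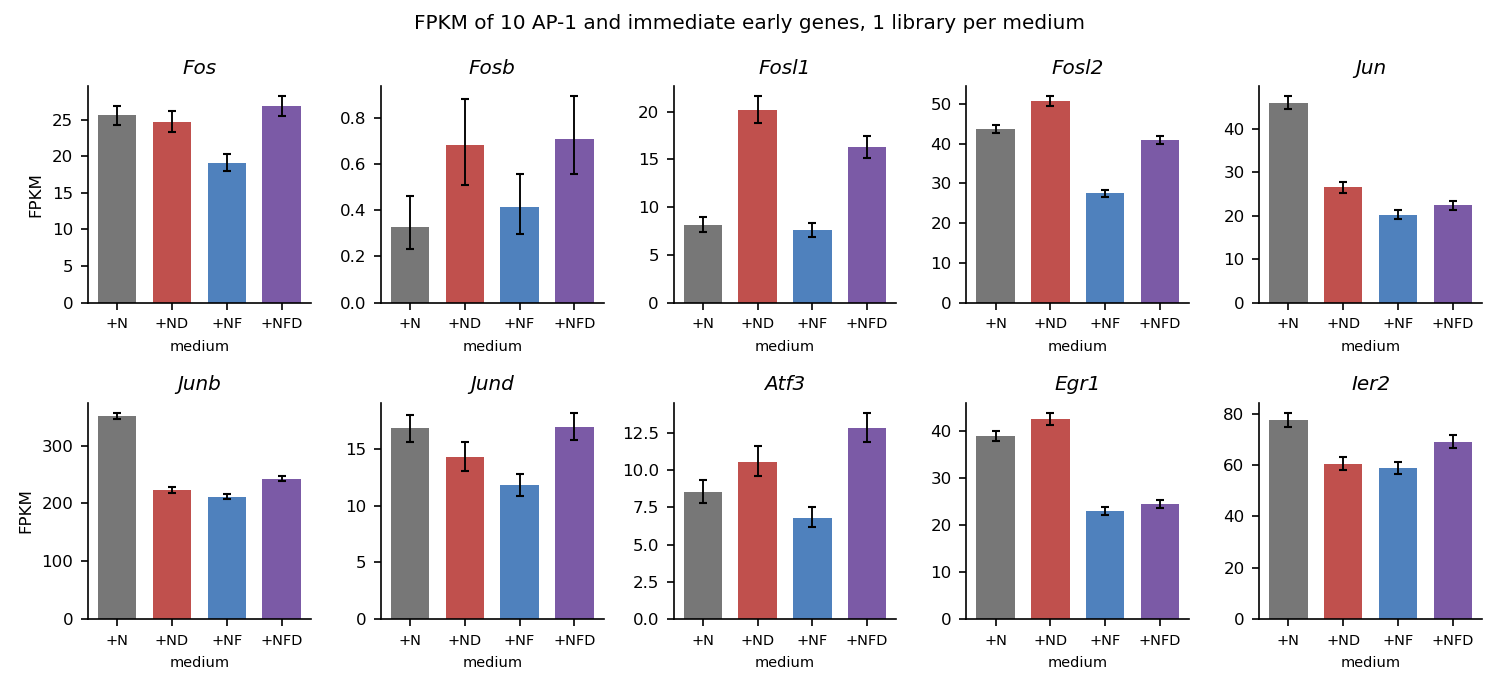
FPKM (vertical axes, each from 0) of the 10 genes in the media on the horizontal axes, with 1 bar per library and 95% Poisson intervals of the estimated fragment number as error bars. In 9 panels the +NF bar is the lowest, and in the Fosb panel, where all bars are below 1 FPKM, the +N bar is.

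All 9 genes that passed the minimum had their lowest level in +NF. Over all 13748 genes at 1 FPKM or more in at least 1 library, 15.2% had their lowest level there. Scaling each library to its upper quartile left the count at 9 of 9, beside 19.2% of all genes. The library with the highest level divided the genes into 3 groups of 3: Jun, Junb and Ier2 were highest in +N (16.2% of all genes), Fosl1, Fosl2 and Egr1 in +ND (30%), and Fos, Jund and Atf3 in +NFD (32.6%). With upper-quartile scaling, Fos and Jund were highest in +N instead, at 27.1 and 17.8, which left Atf3 alone in +NFD. The spread between highest and lowest library was widest for Fosl1, at 2.66-fold, and for Jun, at 2.28-fold. It was 1.85-fold to 1.88-fold for Fosl2, Egr1 and Atf3, 1.66-fold for Junb, and 1.32-fold to 1.44-fold for Fos, Jund and Ier2. Other lists differed in this. Only 1 of 22 genes for upstream kinases and serum response factors and 1 of 8 epithelial markers were lowest in +NF. The counts were 17 of 45 for further immediate early genes, 8 of 11 for fibroblast markers and 7 of 10 for macrophage markers. The part of these cell types in the levels of the AP-1 genes was not tested.

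The Fos family supplies the partners that cannot form dimers among themselves. Fosl1, which encodes Fra-1 and is itself an AP-1 target, was at 8.17 FPKM in +N, 20.2 with DBZ, 7.59 with FGF10 and 16.3 with both. The libraries thus fell into a low pair without DBZ and a high pair with it. Fosl2, which encodes Fra-2 and is expressed in differentiating epidermis, was at 43.6, 50.7, 27.5 and 40.9 FPKM, written here and in what follows in the order +N, +ND, +NF and +NFD. Its +NF level stood apart below the other 3. Fos, the classical serum-induced gene, was at 25.6, 24.7, 19.1 and 26.8 FPKM, and the intervals of +N, +ND and +NFD overlapped.

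In the Jun family, Jun, the activating member that is phosphorylated by JNK, was at 46.0 FPKM in +N, 26.5 with DBZ, 20.2 with FGF10 and 22.4 with both. The +N library was high and the 3 media with an added factor were low. Jund, which in many cells is expressed steadily rather than induced, was at 16.8, 14.3, 11.8 and 16.9 FPKM, and Gm11175 on its other strand was lowest in +NF too. Atf3, a stress-induced factor that pairs with Jun proteins and often represses, was at 8.55, 10.6, 6.82 and 12.9 FPKM, higher with DBZ than without it in both pairs of libraries. Egr1, a zinc finger factor induced through ERK and SRF, was at 39.0, 42.5, 22.9 and 24.4 FPKM. Its libraries fell into a high pair without FGF10 and a low pair with it.

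Ratios between libraries were taken as log2((FPKM + 1)/(FPKM + 1)), and a gene was called at a 2-fold ratio. The first comparison asked what blocking Notch did in the absence of FGF10. In +ND against +N, 1 of the 9 genes, Fosl1, was at least 2-fold higher, with a log2 ratio of 1.21, and none was 2-fold lower. Over 13173 genes tested, 5.88% were 2-fold higher and 5.29% lower. Without the pseudocount the log2 ratio of Fosl1 was 1.30, with a 95% counting interval of 1.13 to 1.48. Jun (-0.77), Junb (-0.65), Ier2 (-0.35), Jund (-0.22) and Fos (-0.05) were lower by less than 2-fold, and Atf3 (0.28), Fosl2 (0.21) and Egr1 (0.12) were higher by less, so that 4 of 9 were higher, beside 58.2% of all genes. For Fos the counting interval included 0. The median of the 9 was -0.05 on the log2 scale, beside 0.10 for all genes. The 8 epithelial markers had a median of -0.58, with 3 of them at least 2-fold lower, and their part in these ratios was not tested.

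FGF10 in the absence of DBZ was compared in +NF against +N. Here 9 of 9 genes were lower, whereas 34.3% of 13090 genes were. At the 2-fold level 1 of the 9 was lower, Jun with a log2 ratio of -1.15 and, without the pseudocount, a counting interval of -1.27 to -1.10; 2.44% of all genes were 2-fold lower and 2.76% higher. Egr1 (-0.74), Junb (-0.73) and Fosl2 (-0.65) followed, then Jund (-0.48), Fos (-0.40), Ier2 (-0.39) and Atf3 (-0.29). Fosl1, at -0.09, had a counting interval that included 0. The median of the 9 was -0.48, whereas that of all genes was 0.12. Over the same libraries fibroblast markers had a median of -0.57 and macrophage markers of -0.31, and the 8 epithelial markers of -0.08; their part in the lower AP-1 levels was not tested.

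With FGF10 present, DBZ was compared in +NFD against +NF, which shares the +NF library with the comparison before. In it 9 of 9 genes were higher, beside 57.2% of 13349 genes. Fosl1 was again the 1 gene past 2-fold, at a log2 ratio of 1.01, where 3.72% of all genes were 2-fold higher and 2.69% lower. It lay at the threshold: with ratios centred on their median it was 0.96, and no gene of the 9 was called. Atf3 was next at 0.83, followed by Fosl2 (0.56), Jund (0.49), Fos (0.47), Ier2 (0.22), Junb (0.19), Jun (0.14) and Egr1 (0.09). The median of the 9 was 0.47 and that of all genes 0.05. Fibroblast markers were higher in +NFD in 11 of 11 cases, 8 of them by 2-fold or more, with a median of 1.96, and 6 of 9 macrophage markers were higher, with a median of 0.29. The part of both in the AP-1 ratios was not tested.

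FGF10 in the presence of DBZ was compared in +NFD against +ND. None of the 9 genes was 2-fold higher or lower, beside 3.39% and 3.11% of 13293 genes. Egr1 had the lowest ratio, at -0.78 with a counting interval of -0.87 to -0.73 without the pseudocount, and Fosl2 (-0.30), Fosl1 (-0.29) and Jun (-0.23) were also lower. Atf3 (0.26), Jund (0.23), Ier2 (0.18), Fos (0.12) and Junb (0.12) were higher, so that 5 of 9 were higher beside 59% of all genes. For both factors together, +NFD against +N, Jun was the 1 gene past 2-fold, at -1.01, beside 4.03% of 13358 genes 2-fold lower and 5.85% higher. Fosl1 was at 0.92, Atf3 at 0.54, Egr1 at -0.65, Junb at -0.53, Ier2 at -0.17 and Fosl2 at -0.09, and 4 of 9 were higher, beside 69.1% of all genes. Fos, at 0.07, and Jund, at 0.01, had counting intervals that included 0, and both turned negative under upper-quartile scaling and under centring. Of the 11 fibroblast markers, 8 were at least 2-fold higher in +NFD against +ND and 9 in +NFD against +N, and 3 of the 8 epithelial markers were 2-fold lower in +NFD against +N. The part of both in these ratios was not tested.

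**Figure D2:**
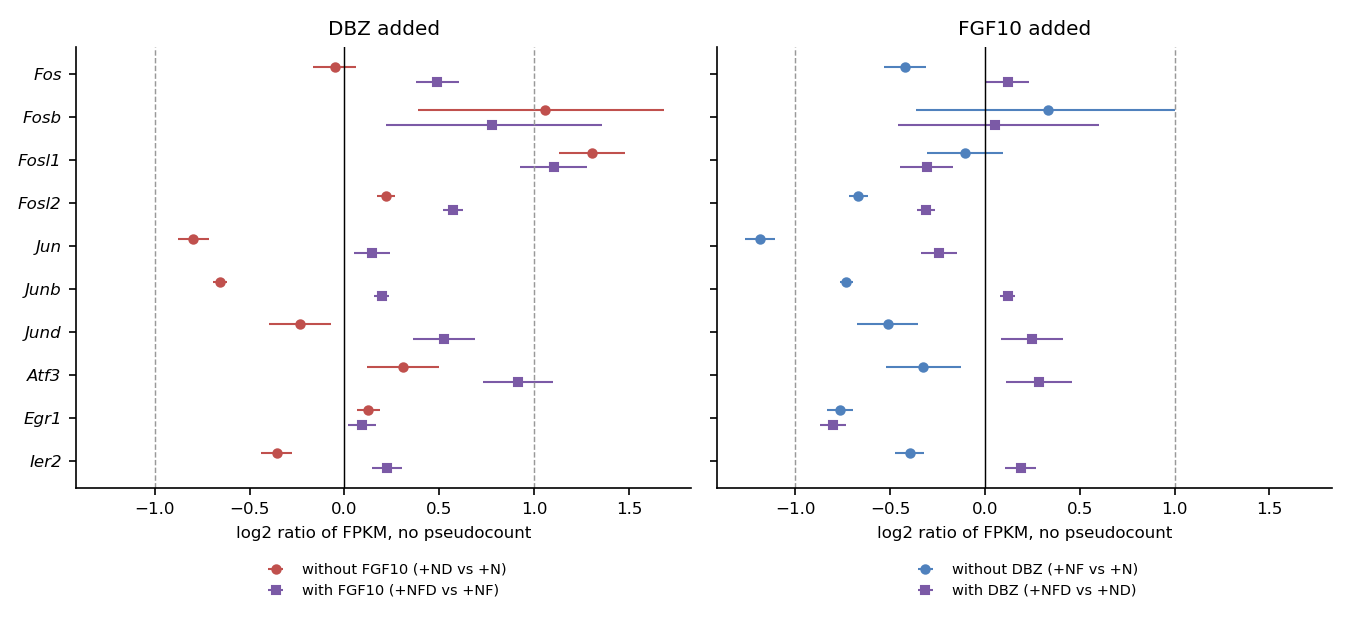
The log2 ratio of FPKM without pseudocount (horizontal axes) for each gene (vertical axis), with DBZ added on the left and FGF10 on the right, points for the pairs of libraries named in the key, 95% counting intervals as lines and dashed lines at 2-fold. Fosl1 lies right of 0 for DBZ in both pairs, at 1.30 and 1.10, and Egr1 left of 0 for FGF10 in both, at -0.77 and -0.80, and Jun moves from -0.80 to 0.15 for DBZ.

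The pairs +ND against +N and +NFD against +NF have no library in common, so that each gene was compared for DBZ in separate libraries. Of the 9 genes, 4 were higher with DBZ in both pairs (Fosl1, Fosl2, Atf3 and Egr1) and 0 were lower in both, beside 38.3% and 23% of 12774 genes. Only Fosl1 was at least 2-fold higher in both, as 1.84% of genes were. Likewise +NF against +N and +NFD against +ND share no library. For FGF10, 4 of 9 were lower in both pairs (Fosl1, Fosl2, Jun and Egr1), beside 14.7% of 12635 genes, and 0 were higher in both, beside 40.5%. All 9 genes were lowest in +NF, so their direction in +NFD against +NF and in +NF against +N was fixed. Both counts of 0 follow from that library alone. Egr1 had nearly the same ratio in both, -0.74 and -0.78, and none of the 9 was 2-fold lower in both.

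For most genes the ratio for a factor differed with the presence of the other factor. The log2 ratio of FGF10 with DBZ minus that without DBZ was 0.91 for Jun, 0.85 for Junb, 0.71 for Jund, 0.58 for Ier2, 0.55 for Atf3, 0.52 for Fos and 0.34 for Fosl2. The 3 genes below 0 were Egr1 (-0.04), Fosb (-0.07) and Fosl1 (-0.20). Over the 9 genes without Fosb, which pass the same minimum as the genes they are set beside, 7 were above 0 and the median was 0.55, whereas over 13748 genes 48.1% were above 0 and the median was -0.02. All 3 Jun genes thus had the highest values, and the 4 Fos genes ranged from -0.20 to 0.52. A low level in +NF raises this value, and all 9 genes were lowest there, so it is not independent of that pattern. The value was not tested, since it is formed from 4 single libraries.

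The makeup of the Fos and Jun transcripts was compared as a share of the FPKM summed over the 7 genes of both families. The Jun genes summed to 414 FPKM in +N, 264 with DBZ, 244 with FGF10 and 282 with both, and the Fos genes to 77.7, 96.2, 54.6 and 84.7. The Fos share was 15.8% in +N, 26.7% with DBZ, 18.3% with FGF10 and 23.1% with both, so both libraries with DBZ had the higher share. Junb alone made up 71.5%, 62.0%, 71.0% and 66.2% of the sum. Within the Fos family, Fosl2 was the most abundant in each library, at 48.3% to 56.1%. The share of Fosl1 in its family was 10.5% in +N, 21.0% with DBZ, 13.9% with FGF10 and 19.2% with both, and that of Fos 32.9%, 25.6%, 35.0% and 31.7%. These are shares of transcripts, and the proteins were not measured here.

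**Figure D3:**
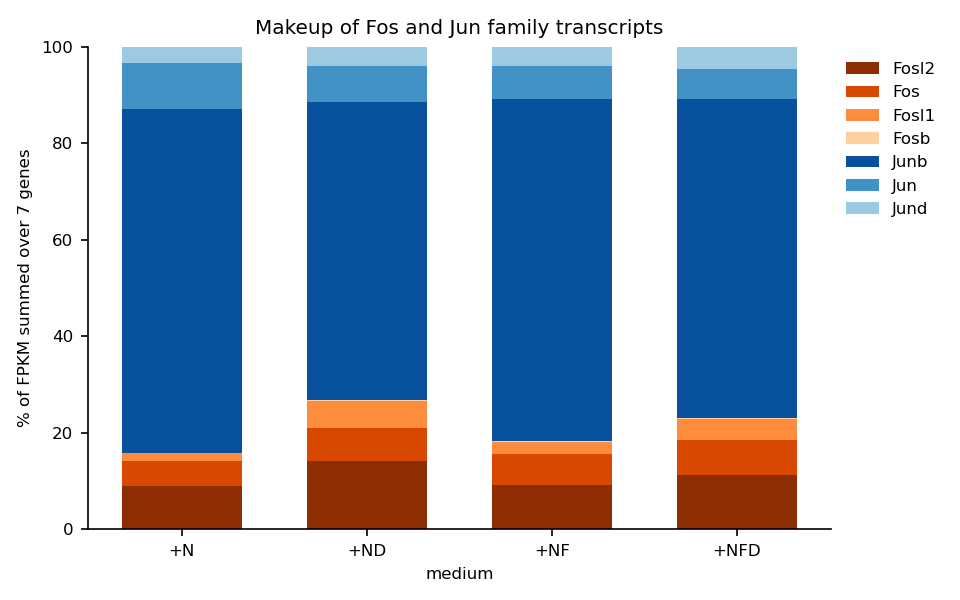
Percent of the FPKM summed over 4 Fos genes (orange and brown) and 3 Jun genes (blue) in each medium, as stacked bars of 1 library each. The Fos genes together reach 15.8% in +N, 26.7% with DBZ, 18.3% with FGF10 and 23.1% with both, and Junb is the largest segment in each bar.

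The 49 further immediate early genes include transcription factors such as Klf4 and Nr4a2 and regulators of signaling and RNA decay such as the Dusp and Zfp36 genes. In +ND against +N, 8 of the 44 tested were at least 2-fold higher and 2 lower, beside 5.88% and 5.29% of all genes, and their median was 0.22, beside 0.10. In +NF against +N, 1 was 2-fold higher and 1 lower, beside 2.76% and 2.44%, and 28 of 44 were lower by any amount, beside 34.3%. The median there was -0.20, beside 0.12. In +NFD against +NF, 5 of 45 were 2-fold higher and 1 lower, beside 3.72% and 2.69%, with a median of 0.22, beside 0.05. In +NFD against +ND, 0 of 44 were 2-fold higher and 2 lower, beside 3.39% and 3.11%, and the median was -0.21, beside 0.09. Upper-quartile scaling raised that count of 2 to 4, and centring the ratios raised it to 5. In +NFD against +N, 4 of 44 were 2-fold higher and 3 lower, beside 5.85% and 4.03%, with a median of -0.04, beside 0.18.

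Ptgs2, the inducible cyclooxygenase, had the highest ratio of this list. It was at 2.17 FPKM in +N, 15.7 with DBZ, 7.31 with FGF10 and 6.60 with both, which gave ratios of 2.40 in +ND against +N and -0.13 in +NFD against +NF. Nr4a2, an orphan nuclear receptor, was at 5.63, 17.4, 4.09 and 13.0 FPKM. Plk3, a stress-responsive kinase, was at 4.55, 16.5, 4.79 and 12.6 FPKM. Both followed the pattern of Fosl1, a low pair without DBZ and a high pair with it. Dusp2, a MAP kinase phosphatase, was at 0.115, 1.67, 0.732 and 2.61 FPKM, with a ratio of 1.69 on the log2 scale in +NFD against +N. These 3 genes, with Arc and Klf4, were at least 2-fold higher with DBZ in both pairs that share no library, as 5 of 44 beside 1.84% of all genes.

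Arc, a cytoskeleton-associated gene known from neurons, was at 17.8 FPKM in +N, 38.2 with DBZ, 6.45 with FGF10 and 16.1 with both, and it alone of this list was 2-fold lower with FGF10 in both pairs, with log2 ratios of -1.34 and -1.20. Klf4, a factor of the epidermal barrier, was also highest in +ND and lowest in +NF, at 27.6, 68.2, 14.0 and 35.3 FPKM. Zfp36l1, which promotes decay of AU-rich transcripts, was at 111, 37.7, 82.2 and 63.0 FPKM, lowest in +ND. Hbegf, an EGF receptor ligand that is also in the list of AP-1 targets, was at 47.6, 33.8, 28.6 and 19.2 FPKM, with a log2 ratio of -1.27 in +NFD against +N. Ctgf, a matrix-associated YAP target, was at 6.19, 3.10, 6.87 and 2.02 FPKM, low with DBZ in both pairs.

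**Figure D4:**
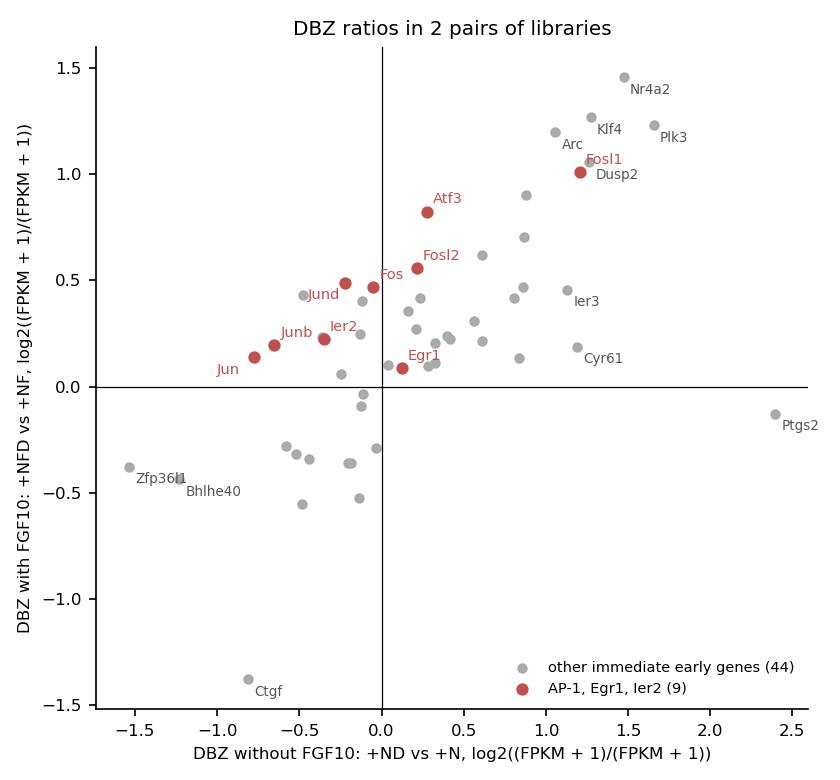
Each point is a gene, with its log2((FPKM + 1)/(FPKM + 1)) ratio for DBZ without FGF10 on the horizontal axis and with FGF10 on the vertical axis; 9 of the 10 genes are red and 44 further immediate early genes grey. Fosl1 (1.21 and 1.01) lies at the upper right beside Nr4a2, Plk3, Klf4, Arc and Dusp2, and Jun, Junb, Jund, Fos and Ier2 lie left of 0 and above it.

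The upstream kinases and serum response factors, which carry the signal from growth factor receptors to these promoters, were compared over 22 tested genes. Of these, 0 were at least 2-fold higher or lower in 4 of the comparisons, and 1, Rps6ka2, was 2-fold higher in +NFD against +N, at 3.12 and 0.796 FPKM. In +NF against +N, 18 of the 22 were higher, with a median of 0.18, beside 65.7% higher and a median of 0.12 for all genes. Srf itself was at 10.4 FPKM in +N, 12.2 with DBZ, 11.3 with FGF10 and 13.9 with both. Transcript levels say nothing of the activity of kinases, which was not measured here.

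The other bZIP proteins that can pair with Fos or Jun proteins or compete with them, are the ATF, BATF, MAF and NRF genes. Of 19 tested in +ND against +N, 1 was at least 2-fold higher and 2 lower, beside 5.88% and 5.29% of all genes. Of 20 in +NF against +N, 1 was higher and 1 lower, beside 2.76% and 2.44%. In +NFD against +NF 1 of 20 was higher and 0 lower, beside 3.72% and 2.69%, and in +NFD against +ND 2 of 20 were higher and 1 lower, beside 3.39% and 3.11%. In +NFD against +N 1 of 21 was higher and 1 lower, beside 5.85% and 4.03%, and without a pseudocount these 2 calls were 5. Atf5, a factor of the integrated stress response, was at 17.3 FPKM in +N, 27.5 with DBZ, 13.2 with FGF10 and 39.8 with both, the same order of media as Atf3. Maf was at 10.7, 22.8, 8.33 and 6.55 FPKM, and Nfe2l3 at 9.79, 3.79, 3.65 and 3.40. Batf3, at 2.98, 0.671, 4.62 and 3.55 FPKM, and Bach2, a repressor, at 0.628, 0.326, 4.38 and 1.75 FPKM, were low genes that were lowest in +ND.

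The 32 genes known as AP-1 targets fall into proteases and their inhibitors, keratinocyte envelope genes, and genes of growth, adhesion and stress. In +ND against +N, 9 were at least 2-fold higher and 4 lower, beside 5.88% and 5.29% of all genes, and in +NF against +N, 3 were higher and 6 lower, beside 2.76% and 2.44%. In +NFD against +NF, 11 were higher and 2 lower, beside 3.72% and 2.69%. In +NFD against +ND, 3 were higher and 6 lower, beside 3.39% and 3.11%, and in +NFD against +N, 7 were higher and 4 lower, beside 5.85% and 4.03%. Their medians were 0.05, -0.25, 0.14, -0.38 and -0.09, beside 0.10, 0.12, 0.05, 0.09 and 0.18 for all genes.

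The 7 envelope genes, which build the cross-linked shell of differentiated keratinocytes, had a median of 0.30 in +ND against +N, -1.82 in +NF against +N, 1.55 in +NFD against +NF, and -0.83 in +NFD against +ND. Sprr1b was at 244 FPKM in +N, 529 with DBZ, 20.2 with FGF10 and 133 with both. Flg, the filaggrin gene, was at 8.36, 58.1, 1.28 and 23.3 FPKM, and Lor, the loricrin gene, at 12.7, 220, 13.4 and 164. Sprr3 was at 224, 212, 41.1 and 122 FPKM. Flg, Sprr1b and Sprr3 had their lowest level in +NF, as the 9 AP-1 and immediate early genes did, whereas Lor was low without DBZ in +N and in +NF alike. These are bulk values, and whether AP-1 levels and envelope genes differ in the same cells was not tested.

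Of the calprotectin genes, S100a8 was at 4.96, 28.9, 1.31 and 4.52 FPKM and S100a9 at 333, 141, 129 and 49.3, so the 2 genes had different orders of media. Among stress targets, Hmox1, the inducible heme oxygenase, was at 35.3, 74.1, 27.8 and 57.5 FPKM and Nqo1 at 100.1, 388, 101 and 242, both higher with DBZ in both pairs. Among proteases, Mmp3 was at 16.7, 54.7, 10.2 and 40.0 FPKM, high with DBZ, and Mmp9 at 176, 84.0, 395 and 182, low with it. In all, 7 of the 32 were at least 2-fold higher with DBZ in both pairs (Flg, Hmox1, Lor, Mmp3, Nqo1, S100a8 and Sprr1b), beside 1.84% of all genes. In the same way 2 were lower (Mmp9 and S100a9), beside 2.13% of all genes. With FGF10, 3 were 2-fold higher in both pairs (Mmp9, Timp1 and Timp3), beside 0.863% of all genes, and 4 lower (Flg, S100a8, S100a9 and Sprr1b), beside 0.926%.

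**Figure D5:**
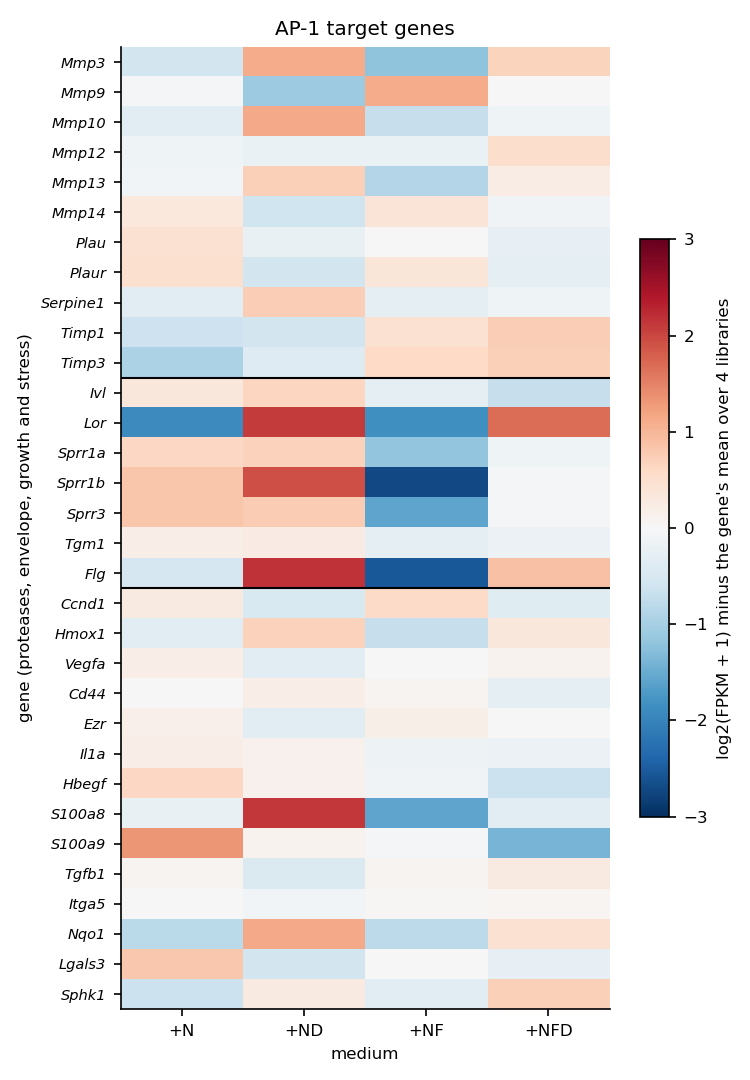
Color gives log2(FPKM + 1) minus the mean of the gene over the 4 libraries, with 32 AP-1 target genes in rows (divided by lines into proteases and inhibitors, envelope genes, and growth, adhesion and stress genes) and media in columns. Lor is red in both media with DBZ, at 220 and 164 FPKM, and Flg and Sprr1b are deepest blue in +NF, at 1.28 and 20.2 FPKM.

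The heat shock genes, which respond to stress and handling as many immediate early genes do, were compared because they were not chosen by AP-1 function. Of 15, 2 were at least 2-fold higher in +ND against +N, Hspd1 at 155 against 66.6 FPKM and Hspe1 at 215 against 103, and 0 in either direction in the other comparisons. With upper-quartile scaling or centred ratios, 1 was past 2-fold in +ND against +N and 1 in +NFD against +ND. In +NF against +N, 9 of 15 were higher, beside 65.7% of all genes, with a median of 0.19, beside 0.12 for all genes. The other 6 were lower: Hspa1b (-0.86), Hspa1a (-0.60), Dnajb1 (-0.52), Hspb1 (-0.27), Hspa5 (-0.08) and Bag3 (-0.07). All of these but Bag3 had their lowest level in +NF, as the 9 AP-1 and immediate early genes did. Over the list 9 of 15 were lowest in +N, beside 41.8% of all genes, and 5 in +NF, beside 15.2%.

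By distance between log2(FPKM + 1) profiles centred on their mean over the 4 libraries, among 9954 protein-coding genes, the nearest to Fosl1 were Sepp1 at a distance of 0.083, Gba2 at 0.13 and Spp1 at 0.15. Sepp1, which encodes a selenium transport protein, was at 13.1, 32.4, 13.2 and 25.8 FPKM. Nearest to Jun were Fam189a2 at 0.12, Tmem154 at 0.13 and Slc39a2 at 0.14. Fam189a2 was at 21.3, 11.2, 8.70 and 8.83 FPKM, high in +N only, as Jun was. The distances describe 4 points each.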

How the data were processed

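RNA-seq was measured in DEOs with 1 library per medium, and +N, +ND, +NF and +NFD were used. The authors trimmed and checked reads (Trim Galore 0.6.5, FastQC 0.11.9), used TopHat 2.1.1 for alignment to GRCm38, and deposited FPKM from Cufflinks, which are scaled to transcript length and library size; a few very abundant transcripts in a library therefore lower the FPKM of its other genes. Their DEGseq calls were not repeated, since counts are needed for that test. The annotation release, strand setting and Cufflinks options are not given in the sources used here.

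The table held 47493 entries, and entries of the same symbol were summed (123 symbols; each of the 10 genes had 1 entry). Ratios are log2((FPKM + 1)/(FPKM + 1)), which understates the difference of low genes, computed where the higher of the libraries reached 1 FPKM, with a threshold of 2-fold. No test was run, because each medium has 1 library. The genes and lists were written from general knowledge with earlier results of these data known. Named were the 10 genes, the members of each list with a 2-fold ratio in any comparison (the 4 with the largest ratios in each direction where there were more), and the 3 nearest profiles of each gene whose log2 range was at least 1. Arc, Klf4, Hmox1, Nqo1, Mmp3, Mmp9, Timp1 and Timp3 were named for a 2-fold ratio in both independent pairs. Srf, Sox2, Krt14, Lyz2 and the 6 heat shock genes lower in +NF against +N were named outside this rule after their values were seen.

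Depth was estimated from FPKM multiplied by kilobases for 8367 single-transcript genes of at least 1000 nt (GENCODE M21, GRCm38) at values under 0.2. Only 29.6% to 37.1% of these low values lay within 0.1 of a whole step. The step was the best fitting one in a set range, and values without any step would also partly fall that near. The basis is therefore weak, and fragment numbers and all counting intervals are approximate. Intervals for levels are exact Poisson and those for ratios exact binomial (Clopper-Pearson), at 95%; half-widths were 0.034 to 0.20 on the log2 scale for 9 genes and up to 0.68 for Fosb. They cover counting error only and hold no spread between cultures.

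Alternatives changed the pseudocount (to 0.1 or none), the filter (none, or 5 FPKM), the scaling (by upper quartiles, or by centring ratios at the median of all genes) and the treatment of repeated symbols (highest entry). The computations were tested on simulated data. The tools were numpy 2.4.6, scipy 1.17.1, pandas 2.3.3 and matplotlib 3.10.9 in Python 3.11.15.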

Additional observations from a re-analysis of the deposited data

Results flagged for a closer look

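For 6 of the 10 genes the ratio for a factor had opposite signs in the presence and absence of the other factor, with 0 outside both counting intervals. By sign alone, 5 of 9 genes were opposite for DBZ, where 4940 of 12774 genes were opposite or at 0. For FGF10 it was 5 of 9, beside 5661 of 12635. The share of all genes that also meets the interval rule was not computed. The differences of the 6 genes were not tested, since they rest on 4 single libraries, and all of them draw on the +NF library, where each of the 6 was lowest. For DBZ, the log2 ratio went from -0.77 to 0.14 in Jun, a difference of 0.91, from -0.65 to 0.19 in Junb (0.85), from -0.22 to 0.49 in Jund (0.71) and from -0.35 to 0.22 in Ier2 (0.58). In Fos it went from -0.05 to 0.47, and the counting interval of the first of these included 0. For FGF10, the ratio went from -0.73 to 0.12 in Junb (0.85), from -0.48 to 0.23 in Jund (0.71), from -0.39 to 0.18 in Ier2 (0.58), from -0.29 to 0.26 in Atf3 (0.55) and from -0.40 to 0.12 in Fos (0.52). Centring the ratios kept these signs, but several positive ratios then lay within their counting half-width. For FGF10 with DBZ these were Junb (0.03, half-width 0.04), Jund (0.14, 0.16), Atf3 (0.166, 0.174) and Fos (0.02, 0.11). Ier2 (0.09, 0.08) stayed beyond it. For DBZ with FGF10, Jun (0.091, 0.094) lay within it, and Junb (0.15), Jund (0.44) and Ier2 (0.17) beyond it.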

How the results depend on the processing

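No paired analysis was possible because each medium has 1 library, and the number 1 that all titles carry is the number of a sample and not of a pair. For the same reason no library could be left out. Of 315 ratios of the 9 genes recomputed under the 7 alternatives, 271 moved by less than their counting error and 44 by more, and no called ratio changed sign. The 271 include all ratios under the changed filters and under the highest entry per symbol. Those alternatives could not move a ratio, since each gene had a single entry and at least 6.82 FPKM. The changed pseudocounts also moved no ratio by more than its counting error. The 44 thus all come from the changed scalings, by upper quartiles or by centring. All genes had medians of 0.10 in +ND against +N, 0.12 in +NF against +N and 0.18 in +NFD against +N, so ratios relative to these medians are lower. On that scale Fosl1 was 1.10 in +ND against +N, and Jun was -1.26 in +NF against +N and -1.19 in +NFD against +N. Upper-quartile scaling and centring each left 0 of the 9 genes past 2-fold in +NFD against +NF, in place of 1. Centring turned the 2-fold higher and lower calls over all genes from 774 and 697 to 615 and 842 in +ND against +N, from 361 and 319 to 248 and 412 in +NF against +N, from 450 and 414 to 345 and 506 in +NFD against +ND, and from 782 and 538 to 540 and 714 in +NFD against +N; upper-quartile scaling gave 277 and 388 in +NF against +N and 624 and 662 in +NFD against +N. A pseudocount of 0.1 gave 1212 and 955 such calls in +ND against +N, 712 and 480 in +NF against +N, 818 and 576 in +NFD against +ND, and 1271 and 743 in +NFD against +N, and no pseudocount gave 1222 and 956, 720 and 477, 829 and 583, and 1269 and 728. The upstream list had 2 genes past 2-fold in any comparison with a pseudocount of 0.1 or with none, and 0 with a filter at 5 FPKM, in place of 1, and the bZIP partners had 3 with that filter in place of 5. With the ATF, JDP and BATF genes added to the total, the Fos share was 14.0% in +N, 22.8% with DBZ, 15.1% with FGF10 and 19.3% with both. Without Jund, an alternative added after the data were seen, it was 16.3%, 27.8%, 19.0% and 24.2% in the same order.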
